A study of Mus musculus with 2 samples.

Results

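Podosome and actin ring genes are described here in wild-type mouse bone marrow cells cultured in 2 conditions. The list holds 45 genes, chosen for their known roles in podosomes and in the actin ring, with earlier results of these data known. They are among 13719 genes with a value of at least 1 TPM (a level corrected for transcript length and scaled to a fixed library total) in at least 1 library. All 45 passed this minimum. RNA of bone marrow cells cultured with macrophage colony-stimulating factor (M-CSF) alone gave library M, and RNA of cells that also received receptor activator of NF-κB ligand (RANKL) gave library MR. The genotype of both was WT, and no allele or other agent is named for either. The doses in the study were 20 ng/mL for M-CSF, in both cultures, and 100 ng/mL for RANKL. Per the labels, RANKL was present for 2 days after 2 days of M-CSF, whereas the study's main text describes 3 days of RANKL, and the day on which this RNA was taken is not named. Each condition is 1 library of a mixed bone marrow culture, so no difference below has a replicate check, no test was made, and intervals cover counting error only.

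Podosomes are dot-like adhesions with a core of branched actin filaments, surrounded by integrins and the proteins that link integrins to actin. In osteoclasts, the multinucleated cells that resorb bone, podosomes condense into a belt, and on bone into the actin ring of the sealing zone, which encloses the resorbed area. The kinases Src and Pyk2 act downstream of the αvβ3 integrin in this process, small GTPases control the filaments, and mice that lack Src develop osteopetrosis because their osteoclasts do not resorb bone.

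The label of the cultures was checked against marker genes. All 10 osteoclast markers were higher in MR, with a summed level of 870 TPM in M and 30428 TPM in MR, and Oscar, Dcstamp, Ocstamp and Calcr were listed at 0 in M. Of 10 monocyte and macrophage markers 6 were lower in MR by a log2 ratio below -1 (summed 5885 and 3456 TPM), as were 13.2% of all genes. Of 10 neutrophil markers none passed either threshold (1401 and 978 TPM). Of 8 megakaryocyte and platelet markers 3 were lower (546 and 77.8 TPM, of which Pf4 made up 505 and 38.4 TPM). Besides Pf4 these were Gp1bb (2.53 and 0 TPM) and Gp5 (3.21 and 0.96 TPM), both low in M. Of 10 housekeeping genes 2 were higher (Sdha and Pgk1) and none was lower, and Gapdh had 40.4 and 49.8 TPM. The summed levels of the other lists were 34.4 and 49.4 TPM for stromal and smooth muscle markers, with Lum and Thy1 at 0 in both libraries, 57.9 and 73.6 for endothelial, 14.9 and 8.50 for lymphoid, 14.1 and 17.5 for dendritic, 3.94 and 3.31 for mast cell and basophil and 3.35 and 2.11 TPM for erythroid markers. The part of these shifts in the values of the podosome genes was not tested, and in such bulk RNA fewer cells of a type and less RNA per cell cannot be told apart.

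Of the 45 genes, 14 were higher in MR by a log2 ratio above 1 (with 1 added to each TPM), 3 were lower by a log2 ratio below -1, and 28 lay between. Among all genes tested 21.0% were higher and 13.2% were lower by the same rule, and the corresponding shares of the 45 genes were 31.1% and 6.67%. Since the list was chosen with earlier results of these data known, its shares describe the list only. The higher genes were Src, Bcar1, Pxn, Sh3pxd2a, Rac2, Dock5, Cttn, Vcl, Parva, Tns3, Actn1, Ablim1, Myo1d and Myo10, and the lower genes were Ptk2b, Zyx and Coro1a. The median log2 ratio was 0.16 over the 45 genes and 0.20 over all genes, and by the listed coverage per aligned Gb 0.38 and 0.14, so the order of these medians depends on the unit. Scaling by the median of ratios shifted all log2 ratios down by about 0.18, and the median of the 45 genes was then -0.02, with 13 genes higher and 4 lower, beside 18.0% and 15.7% of all genes. At a log2 threshold of 2, 9 of the 45 were higher and 0 were lower, beside 6.98% and 3.84% of all genes.

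The higher genes were mostly of low or moderate abundance. Among the 14 podosome genes with a mean of both libraries below 50 TPM, 8 were higher and 0 were lower, where 21.5% and 13.1% of all genes at that level were. Among the 13 genes from 50 to 200 TPM, 5 were higher and 2 were lower, where the shares of all genes were 17.5% and 11.1%. Among the 18 genes above 200 TPM, only Rac2 was higher and only Coro1a was lower, although 24.7% and 19.9% of all genes at that level were. The 45 genes together held 13179 TPM in M and 13709 TPM in MR, which is 1.32% and 1.37% of the summed TPM of the assembled loci.

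**Figure D1:**
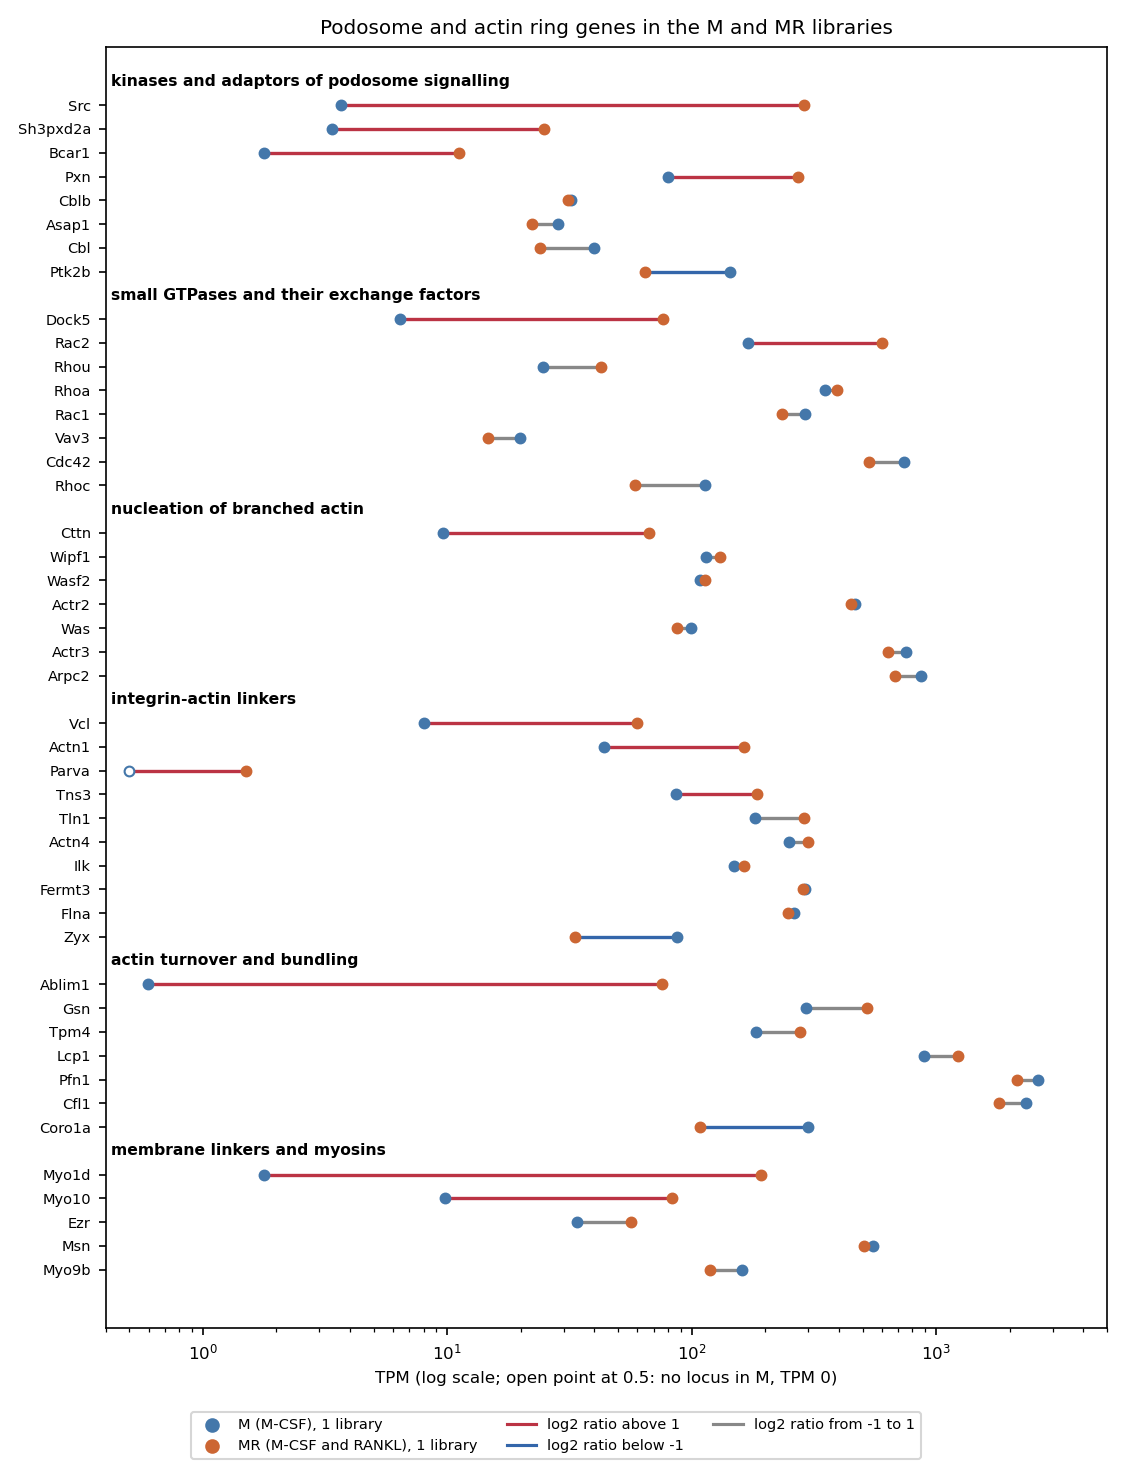
TPM (log axis) of the 45 genes in the M library (blue points) and the MR library (orange points), grouped by role, with 1 library per condition and no error bars. Red lines join the 14 genes with a log2 ratio above 1, blue lines the 3 below -1 and grey lines the other 28, and 10 of the 14 red lines start below 10 TPM in M.

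**Figure D2:**
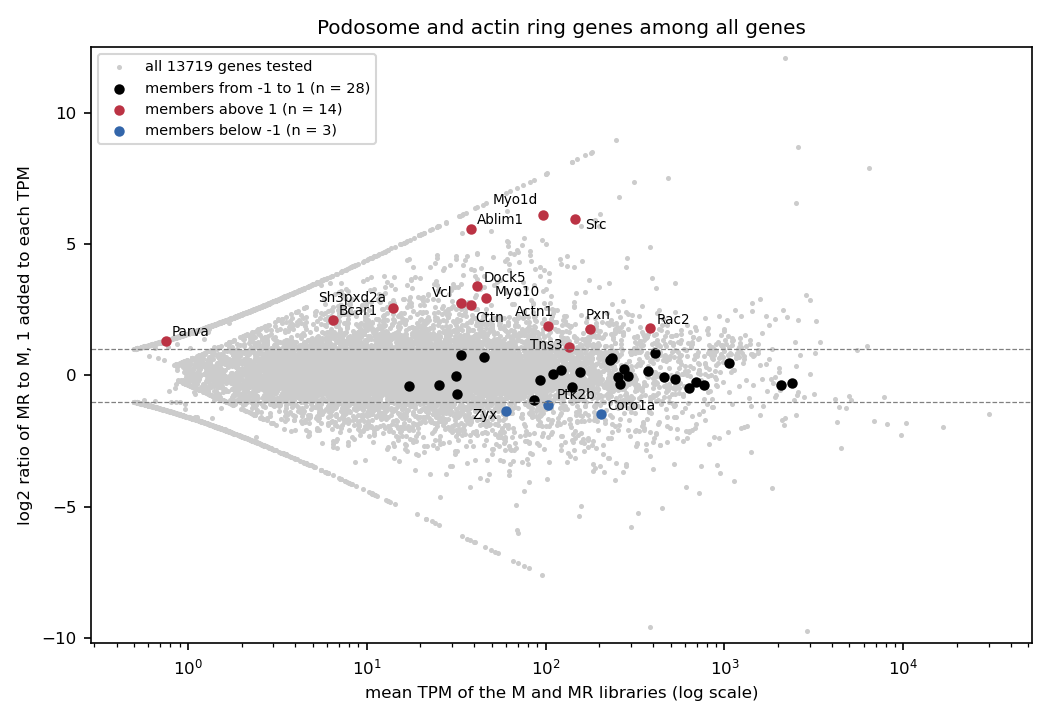
Log2 ratio of MR to M (1 added to each TPM) against the mean TPM of both libraries (log axis) for all 13719 genes (grey) and the 45 podosome and actin ring genes (coloured), with dashed lines at 1 and -1. Of the 18 podosome genes above 200 TPM, 16 lie between the lines.

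Among the 8 kinases and adaptors of podosome signalling, 4 were higher and 1 was lower. Src, the tyrosine kinase needed for the actin ring (chr2:157418444-157471862 on GRCm38, plus strand), had 3.68 TPM in M and 289 TPM in MR, a log2 ratio of 5.95. The size of this difference depends on how the locus was drawn. In MR the assembled locus began 51315 bases upstream of the gene and also covered the neighbouring gene Manbal, which had a locus of its own in M with 44.3 TPM. When Src and Manbal were joined in both libraries, the values were 48.0 TPM in M and 289 TPM in MR, which is 6.01-fold and a log2 ratio of 2.56. When the M level of Manbal was subtracted from the MR locus, 244 TPM remained in MR and the log2 ratio was 5.71. By the listed coverage per aligned Gb the log2 ratio was 2.97. The coverage listed for the MR locus was 15.7% of the coverage that its FPKM (fragments scaled by length and depth) corresponds to. The difference therefore passed the threshold in each of these ways, and its size ranged among them from 2.56 to 5.95 on the log2 scale. All of them use the same MR locus, in which Manbal has no value of its own. In M, Src held 7.66% of the joined level. A change of Manbal in MR cannot be told apart from a change of Src.

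The other called genes of this group were adaptors and the Pyk2 kinase gene. Pxn, which encodes the adhesion adaptor paxillin (chr5:115506676-115555987), had 80.2 TPM in M and 272 TPM in MR, which is 3.39-fold higher. Sh3pxd2a, which encodes the podosome scaffold Tks5, had 3.39 and 24.9 TPM, and the 2 M loci held about 71 read pairs against 1272 in MR. The log2 ratio of these pairs was 4.50, with an exact binomial interval of 4.16 to 4.87, after correction for the aligned bases and the FPKM-to-TPM scale of each library. Bcar1, the p130Cas adaptor, had 1.79 and 11.2 TPM, but its M value came from about 3 read pairs on 5.72% of the exon bases, against about 224 pairs in MR. The log2 ratio of these pairs, corrected in the same way, was 6.56 with an interval of 4.998 to 8.85. Both intervals lay above 1. They count only pairs in assembled loci, and reads of M outside these loci are not in the tables. The pairs were not scaled for the exon bases in the loci, so these ratios also hold the unlike cover in M and MR.

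Ptk2b, which encodes Pyk2, went the other way, with 143 TPM in M and 64.3 TPM in MR, a log2 ratio of -1.15. The direction of Ptk2b depends on the unit. The coverage listed for its M locus was 26.9% of the coverage that its FPKM corresponds to, and by listed coverage the log2 ratio was 0.50. The ubiquitin ligase genes Cbl and Cblb, whose products bind Src in osteoclasts, lay between the thresholds with 39.9 and 24.0 TPM for Cbl and 32.0 and 31.2 TPM for Cblb. Asap1, a GTPase-activating protein for ARF GTPases, had 28.4 and 22.1 TPM, a log2 ratio of -0.35, and by listed coverage 1.83, where the coverage of its M locus was 14.1% of that expected from the FPKM.

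Among the 8 small GTPases and their exchange factors, Dock5 and Rac2 were higher and none was lower. Dock5, an exchange factor for Rac that osteoclasts need for the actin ring (chr14:67752135-67933442), had 6.42 TPM in M and 76.6 TPM in MR, 11.9-fold higher. Its locus covered all 12169 exon bases in both libraries, with about 438 and 4120 read pairs. Rac2, the Rac GTPase of blood cells (chr15:78559167-78572783), had 170 and 601 TPM, 3.52-fold higher, and was the only one of the 18 most abundant podosome genes above the threshold. Its locus held 99.1% of the exon bases in M but 63.0% in MR, with about 2933 and 5186 read pairs. The log2 ratio of these pairs, not scaled for exon bases, was 1.16 with an interval of 1.10 to 1.23, against 1.81 from TPM. Dock5 and Rac2 kept a log2 ratio above 1 in each alternative run.

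The remaining GTPase genes moved less than the threshold. Rac1, the ubiquitous Rac, had 290 and 234 TPM, and exons of Daglb on the opposite strand overlap 51.4% of its exon bases. Rhoa, which controls contractility through its kinases, had 352 and 393 TPM. Rhoc had 113 and 58.8 TPM, a log2 ratio of -0.93 that passed -1 under median-of-ratios scaling and when mitochondrial and the 20 most abundant genes were left out. Rhou, an atypical GTPase linked to podosome patterning, had 24.6 and 42.4 TPM, and Vav3, an exchange factor used by osteoclasts, had 19.9 and 14.6 TPM. Cdc42, which activates the WASP proteins, had 736 and 531 TPM, a log2 ratio of -0.47, and -2.41 by listed coverage. The coverage listed for its MR locus was 15.1% of that expected from the FPKM.

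Of the 7 genes for the nucleation of branched actin, only Cttn was higher and none was lower. Cttn encodes cortactin, which stabilises filament branches in the podosome core (chr7:144435733-144471009), and had 9.62 TPM in M and 66.7 TPM in MR, 6.94-fold higher. The other genes of this group lay between the thresholds. The Arp2/3 subunit genes had 866 and 678 TPM (Arpc2), 465 and 450 TPM (Actr2) and 754 and 634 TPM (Actr3), with log2 ratios from -0.35 to -0.05. Was, the activator of Arp2/3 in blood cells, had 99.4 and 87.4 TPM, and Wasf2, the WAVE protein of macrophages, had 108 and 113 TPM. Wipf1, whose product WIP stabilises WASP, had 114 and 131 TPM, a log2 ratio of 0.20, but 2.76 by listed coverage.

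Of the 10 integrin-actin linkers, 4 were higher and 1 was lower. Vcl encodes vinculin, which ties talin to actin in the podosome ring (chr14:20929398-21033676, plus strand), and had 8.02 TPM in M and 59.7 TPM in MR, 7.44-fold higher, with exons of Ap3m1 on the other strand over 25.5% of its exon bases. Actn1, an actin crosslinker of the α-actinin family, had 43.9 and 163 TPM, 3.72-fold higher, and its neighbour in function Actn4 had 251 and 300 TPM. In M the Actn1 value sums 2 loci of 9.94 and 33.9 TPM. With loci weighted by exon bases its log2 ratio was 2.29, against 1.87 from the sum. Tns3, a tensin that binds integrin tails, had 86.3 and 185 TPM, a log2 ratio of 1.09 that was 0.76 by listed coverage and missed the threshold under 2 other scalings too. Parva, an α-parvin, was listed at 0 in M and at 1.51 TPM in MR from about 2 read pairs, which is under the floor of 3 counts, so no fold is given. Without Parva 13 genes were higher.

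Zyx, which encodes the LIM protein zyxin of focal adhesions (chr6:42349630-42360213, plus strand), was the lower linker, with 86.8 TPM in M and 33.3 TPM in MR, a log2 ratio of -1.36. The other linkers lay between the thresholds. Talin (Tln1) had 182 and 288 TPM, a log2 ratio of 0.66 and 1.02 by listed coverage, and kindlin-3 (Fermt3), which activates integrins of blood cells, had 291 and 284 TPM. Ilk, the integrin-linked pseudokinase, had 149 and 164 TPM, a log2 ratio of 0.14 and -0.33 by listed coverage, with exons of Taf10 on the other strand over 76.7% of its exon bases, and filamin A (Flna) had 262 and 248 TPM.

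The RefSeq promoters (GRCm38.p6, 250 bases before to 50 after the start, 300 in all) of Vcl and Zyx are shown because the genes belong to the same adhesion layer and differed between the libraries in opposite directions. The assembled MR locus began 9 bases downstream of the start in Vcl and 199 bases downstream in Zyx. In M the Zyx locus began at chr6:42349622, inside the printed stretch and before the marked matches. The Zyx 5′ ends in M and MR lay 405 bases apart. They were 8 bases (M) and 6 bases (MR) from annotated transcript starts other than that of the printed entry, and which start was used was not tested. Capitals mark matches, on either strand, to a CArG box in Vcl and to the AP-1 motif TGANTCA and the NFAT core GGAAA in Zyx.
Vcl promoter, chr14:20929148-20929447: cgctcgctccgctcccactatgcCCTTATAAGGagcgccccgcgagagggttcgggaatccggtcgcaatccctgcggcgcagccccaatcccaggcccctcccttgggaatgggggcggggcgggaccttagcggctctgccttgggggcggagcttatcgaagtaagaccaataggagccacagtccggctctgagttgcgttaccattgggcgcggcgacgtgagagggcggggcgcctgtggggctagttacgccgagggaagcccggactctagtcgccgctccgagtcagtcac
Zyx promoter, chr6:42349578-42349877: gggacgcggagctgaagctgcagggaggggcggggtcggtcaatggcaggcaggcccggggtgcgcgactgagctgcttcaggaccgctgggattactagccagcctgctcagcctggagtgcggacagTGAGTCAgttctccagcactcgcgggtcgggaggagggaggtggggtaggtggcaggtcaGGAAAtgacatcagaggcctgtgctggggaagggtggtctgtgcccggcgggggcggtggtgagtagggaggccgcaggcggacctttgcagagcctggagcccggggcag
Of 32851 RefSeq promoters, 1.63% held a CArG box, the motif of serum response factor, 7.81% the AP-1 motif and 61.3% the NFAT core. The CArG box of Vcl lay 227 bases before the start, and Vcl was the only one of the 35 podosome genes with an entry that held one. The AP-1 motif was found in 3 of the 35 (Zyx, Actn4 and Ezr), the NFAT core in 17 of 35 and the PU.1 motif GAGGAAGT, held by 3.20% of all promoters, in 0. A match is a sequence of letters and not a measured binding site.

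Of the 7 genes for actin turnover and bundling, Ablim1 was higher and Coro1a was lower. Ablim1 encodes an actin-binding LIM protein (chr19:57032733-57314919, minus strand), and had 0.60 TPM in M from about 1 read pair and 75.8 TPM in MR from about 1444. The log2 ratio of the read pairs was 10.84, with an exact binomial interval of 8.36 to 16.14, against 5.59 from TPM with 1 added. These are unlike measures, since the pairs were not scaled for exon bases. The M locus held 216 exon bases, and the MR loci held 4233 and 4395. Without 1 added the TPM ratio was 127-fold. In MR the gene was split into 2 loci of 38.7 and 37.0 TPM, so their sum may count 1 transcript more than once. With the longest locus alone the log2 ratio was 4.58. Coro1a, the coronin of leukocytes (chr7:126699773-126707787, minus strand), had 300 TPM in M and 108 TPM in MR, and its log2 ratio of -1.47, the lowest of the 45, stayed below -1 in each alternative run.

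The most abundant podosome genes belong to this group and lay between the thresholds. Profilin (Pfn1), which delivers actin monomers, had 2610 and 2148 TPM, and cofilin (Cfl1), which severs filaments, had 2321 and 1815 TPM. L-plastin (Lcp1), the bundling protein of leukocytes, had 893 and 1227 TPM, and Tpm4, a tropomyosin found in osteoclast podosomes, had 183 and 277 TPM. Gsn, which encodes the severing protein gelsolin, had 292 and 522 TPM, a log2 ratio of 0.83.

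The promoters of Ablim1 and Coro1a are shown because these genes had the highest and the lowest log2 ratio from TPM among the members with a RefSeq entry in which the MR locus began within about 200 bases of the start. For Ablim1 this is 1 of 5 entries, an internal start from which the longer MR locus began 208 bases downstream, and for Coro1a 1 of 2, with the locus 73 bases downstream. These MR loci began nearer to other annotated transcript starts, at 32 bases for Ablim1 and 10 bases for Coro1a. Capitals mark the NFAT core GGAAA on either strand.
Ablim1 promoter, chr19:57197582-57197881: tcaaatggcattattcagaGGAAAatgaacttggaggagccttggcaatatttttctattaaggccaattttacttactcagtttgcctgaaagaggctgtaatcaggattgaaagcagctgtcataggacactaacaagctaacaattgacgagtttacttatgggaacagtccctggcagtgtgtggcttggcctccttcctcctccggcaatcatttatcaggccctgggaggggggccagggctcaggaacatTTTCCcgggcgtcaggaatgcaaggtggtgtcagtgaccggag
Coro1a promoter, chr7:126704767-126705066: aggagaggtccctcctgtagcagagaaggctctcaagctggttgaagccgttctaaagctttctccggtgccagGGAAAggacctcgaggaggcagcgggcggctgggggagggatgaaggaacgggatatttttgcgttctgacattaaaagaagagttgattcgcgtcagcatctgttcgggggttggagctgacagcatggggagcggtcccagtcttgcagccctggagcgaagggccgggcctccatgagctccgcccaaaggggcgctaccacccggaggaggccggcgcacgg
The NFAT core was present in both, as it was in 61.3% of all RefSeq promoters. It was found in 4 of the 7 higher genes with an entry (Bcar1, Tns3, Ablim1 and Myo10), in 2 of the 2 lower genes and in 11 of the 26 between. No limit was set on the distance from an entry to the assembled 5′ end, which for Myo10 was 23110 bases. Neither promoter held the AP-1 or PU.1 motif.

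Of the 5 membrane linkers and myosins, Myo1d and Myo10 were higher and none was lower. Myo1d, a class I myosin that links actin to membranes (chr11:80482126-80780025, minus strand), had 1.79 TPM in M and 192 TPM in MR, a log2 ratio of 6.11, beside 5.95 for Src and 5.59 for Ablim1. The order of these 3 genes depends on the unit and the pseudocount. In M it was seen as 2 fragments of 415 and 223 exon bases with about 4 read pairs, and in MR as 1 locus over all 6465 exon bases with about 5485 pairs. The log2 ratio of the pairs was 10.76, with an exact binomial interval of 9.41 to 12.64. It was not scaled for these exon bases, and without 1 added the TPM ratio was 107-fold. Myo10, the myosin of filopodia tips, which is also found in the sealing zone, had 9.83 and 83.2 TPM, 8.47-fold higher. Its M value sums 2 loci of 3.92 and 5.92 TPM, so it may count 1 transcript more than once. The log2 ratio of Myo10 was 2.96 from the sum, 3.74 with loci weighted by exon bases and 4.10 with the longest locus.

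The assembled 5′ end of Myo10 lay away from the annotated starts. In both libraries the 5′ end lay at the same base, 102671 bases inside the annotated gene (chr15:25622525-25813673, plus strand) and 11325 bases from the nearest annotated transcript start. Over the 44 genes with a locus in both libraries, 32 had 5′ ends within 100 bases of each other, and 4 differed by more than 1000 bases (Src, Bcar1, Asap1 and Ablim1). The other members of this role lay between the thresholds. Msn (moesin), the main ERM linker here, had 553 and 508 TPM, Ezr (ezrin) had 34.1 and 56.4 TPM, and Myo9b, a myosin with a GTPase-activating domain, had 161 and 119 TPM from 2 loci in each library.

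**Figure D3:**
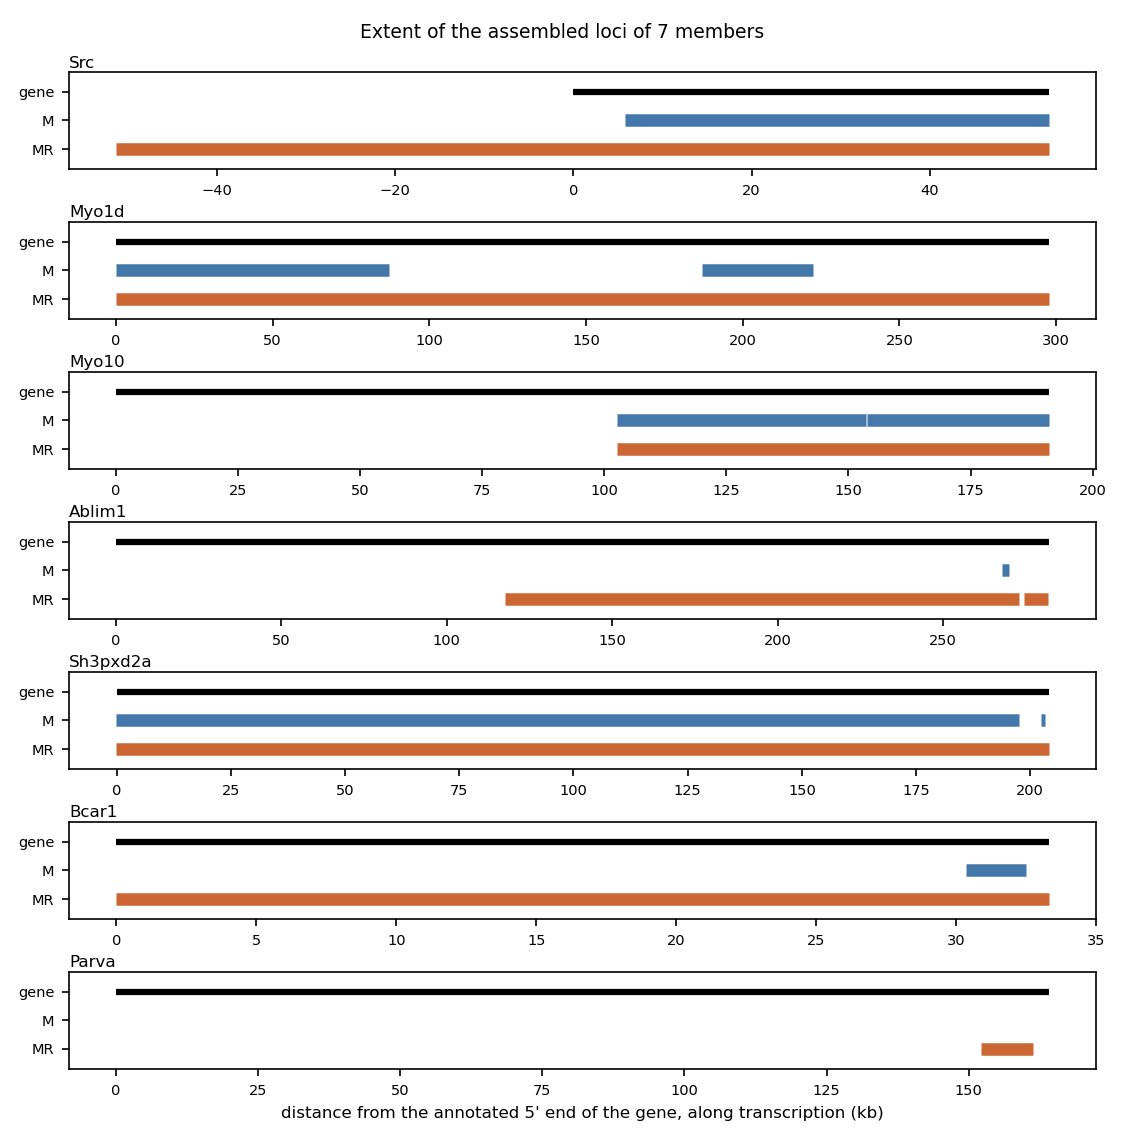
Extent of the annotated gene (black) and of the assembled loci in M (blue) and MR (orange) for 7 genes, as distance in kb from the annotated 5′ end along transcription. Src extends 51315 bases upstream of its gene in MR, Myo1d, Ablim1 and Bcar1 are only partly covered in M, and Parva has no locus in M.

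Several podosome genes made up a larger share of their gene family in MR, and a paralog a smaller one. The families were drawn up after the values had been seen, so they describe these libraries only. The paxillin family summed to 373 TPM in M and 330 TPM in MR, and within it Pxn went from 21.5% to 82.5%, whereas Lpxn (leupaxin, the leukocyte paralog) went from 78.2% to 16.6%. Dock1, Dock2 and Dock5, the Dock-A subfamily of Rac exchange factors, summed to 129 and 117 TPM, and Dock5 went from 4.99% to 65.4% as Dock2, the leukocyte Rac exchange factor, went from 87.0% to 30.2%. Dock factors of other subfamilies are not in this sum, and Dock8 had 106 and 79.2 TPM, Dock10 60.5 and 69.5 TPM and Dock11 20.7 and 17.6 TPM.

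Other families had shifts of the same kind. Cttn made up 3.14% of the cortactin family in M and 23.0% in MR, with Hcls1, its blood cell paralog, as the rest, in sums of 307 and 291 TPM. Sh3pxd2a made up 4.95% and 38.8% of the Tks scaffolds, next to Sh3pxd2b, in sums of 68.5 and 64.0 TPM. Rac2 went from 36.7% to 71.7% of the Rac GTPases, but here the sums were 464 and 838 TPM. These shares rest on the Rac2 loci of unlike exon cover given above. In some families the share of a podosome gene fell. Coro1a went from 34.3% to 14.6% of the type I coronins, and Zyx from 91.3% to 75.3% of the zyxin family. Actn4 went from 85.1% to 64.8% of the α-actinins, where Actn1 went from 14.9% to 35.2%. In further families the shares were close in both libraries. Tns3 held 90.1% of the tensins in both libraries, and Was 91.9% and 90.2% of the WASP family.

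**Figure D4:**
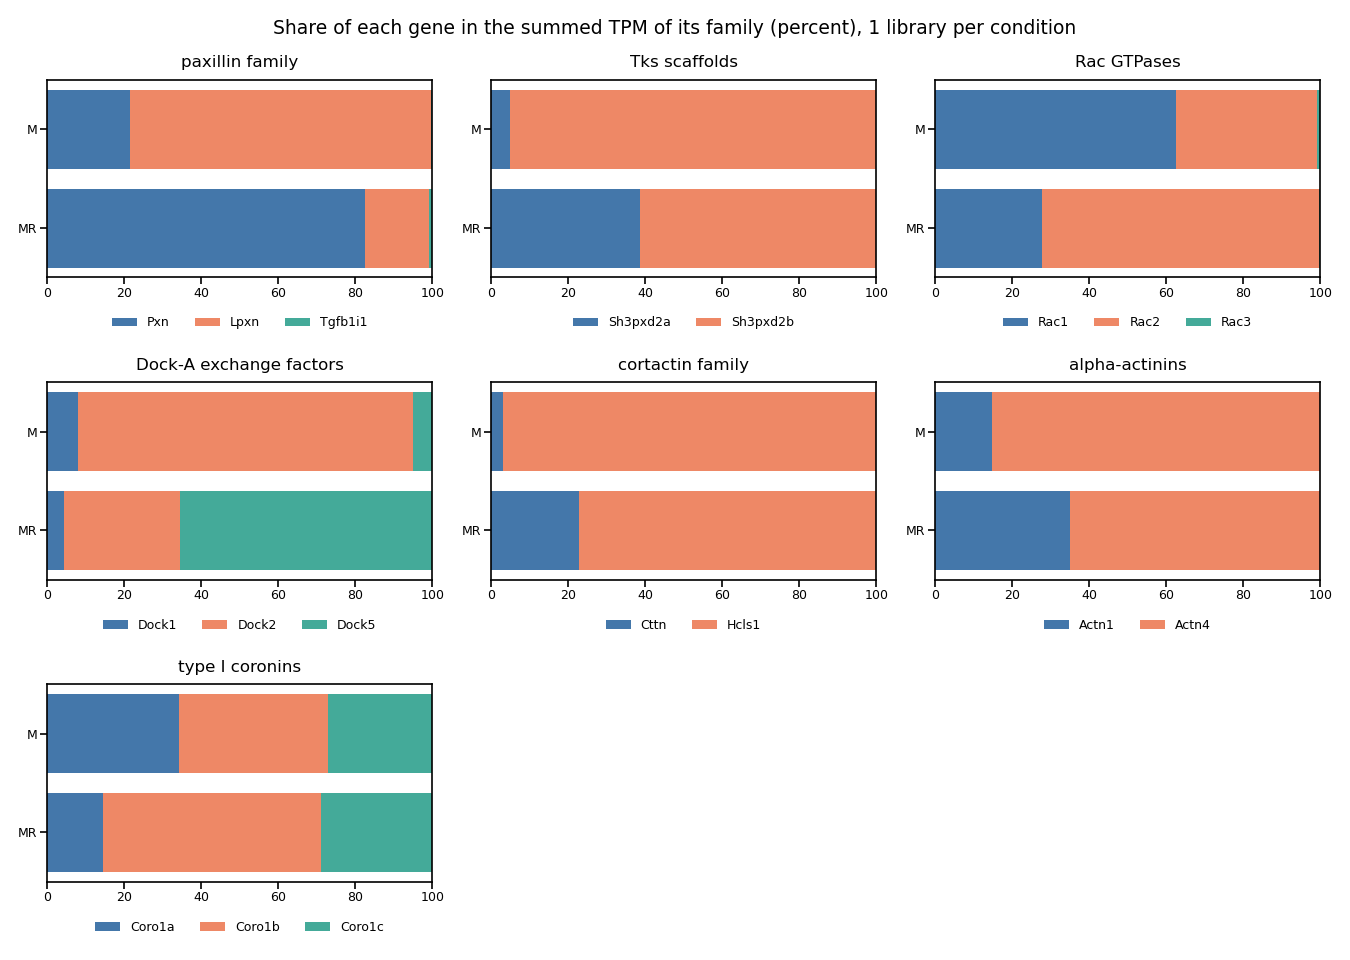
Share (percent, axis from 0 to 100) of each gene in the summed TPM of 7 gene families in M and MR, with 1 library per condition and no error bars. The blue part for Pxn, Sh3pxd2a, Cttn and Actn1 is wider in MR, as is the green part for Dock5, whereas that for Rac1 and Coro1a is narrower.

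The rest of the actin machinery was taken from 5 wider lists of 179 genes, of which 171 passed the TPM minimum. Of these, 41 (24.0%) were higher and 23 (13.5%) lower, with a median log2 ratio of -0.02, close to the 21.0% and 13.2% of all genes. The 25 genes of Arp2/3, WASP and WAVE gave 5 higher and 0 lower, among them Arpin, an Arp2/3 inhibitor (7.75 and 49.0 TPM), and Pstpip1, a WASP-binding adaptor (170 and 477 TPM). The 38 genes of integrin adhesion gave 10 higher and 5 lower. Both chains of the αvβ3 integrin were higher, Itgb3 with 5.56 and 158 TPM and Itgav with 34.5 and 185 TPM, as was Mmp14, a membrane-bound matrix protease (54.8 and 737 TPM). Ptk2, the focal adhesion kinase, was lower (14.5 and 4.34 TPM).

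The 40 other GTPases and regulators gave 9 higher and 5 lower. Net1, a RhoA exchange factor, had 5.15 and 78.1 TPM, Bcar3, a partner of p130Cas, had 7.55 and 99.01 TPM, and Rhoh, a GTPase of blood cells, had 12.6 and 1.00 TPM. The 40 genes of actin, turnover, capping and bundling gave 11 higher and 9 lower, and the 28 other myosins and membrane linkers gave 6 higher and 4 lower. Scin, a gelsolin relative, had 0.60 and 121 TPM. Anxa1, a membrane-binding annexin, had 322 and 1067 TPM. Actb was given no value, since in M it lay inside the locus of another gene.

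Under the listed coverage per aligned Gb, 15 of the 45 genes were higher and 3 lower, beside 15.5% and 10.1% of all genes. In this unit Ptk2b, Asap1 and Ilk changed sign, Parva and Tns3 lost the threshold, and Asap1, Wipf1, Cdc42 and Tln1 passed it, with the values given above. Of the 17 called genes, 14 passed the threshold in the same direction in each alternative unit, scaling, filter and locus rule in which they had a value.

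**Figure D5:**
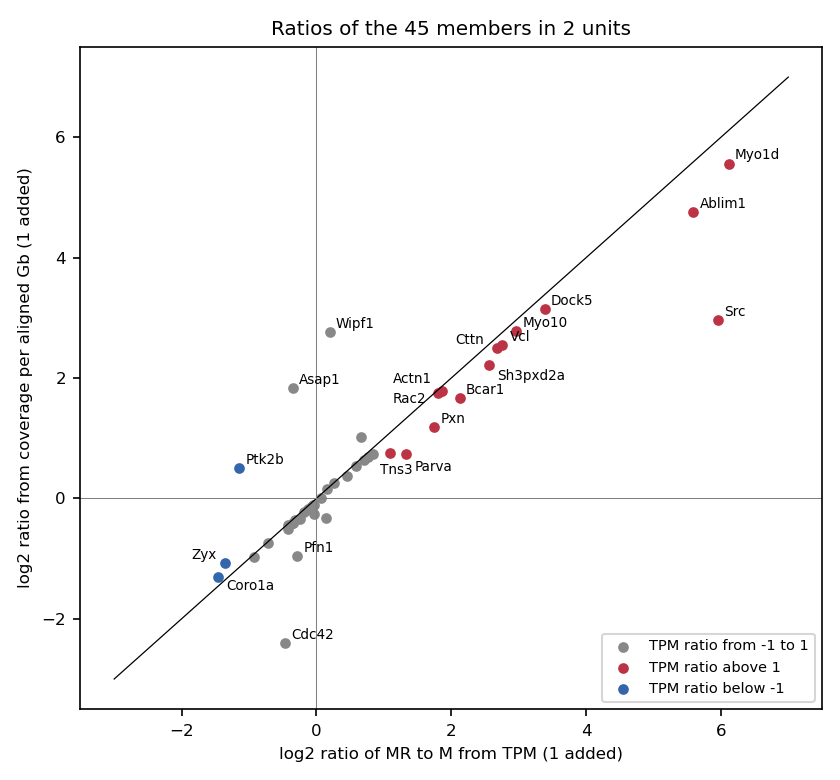
Log2 ratio of MR to M from the listed coverage per aligned Gb against that from TPM (1 added in both units) for the 45 genes, with the line of equal values. Most genes lie near the line, whereas Src, Ptk2b, Asap1, Wipf1 and Cdc42 lie far from it.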

How the data were processed

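RNA-seq of 2 libraries was analysed. Per the study, the authors trimmed adaptors (Trim Galore), mapped paired reads of 150 bases to mm10 (HISAT2) and ran StringTie on GENCODE vM27, whose positions refer to another build (GRCm39). Tool versions are not given in the sources used here. The deposited tables list, per entry, a coverage (signal per base, not scaled for depth), an FPKM and a TPM. In the authors' files the TPM column is treated as a score, because the assembled loci alone sum to 1000000 and the named entries come on top. The named entries were not used.

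Each assembled locus (19422 in M and 19922 in MR) was given to the GENCODE vM21 gene (GRCm38) with the most exon bases on its strand, at least 50 (15665 and 16523 loci, 95.4% and 96.9% of the TPM). A locus without a strand could go to a gene of either strand. TPM was summed per gene, a gene without a locus was set to 0, and genes with at least 1 TPM in 1 library were compared as log2 ratios with 1 added. Genes inside the locus of another gene (209) had no value, and 354 genes had a shared locus, in which 50% or more of another coding gene's exon bases lay too. The strand of counting is not given in the sources used here, and 16 of the 45 genes overlap exons of the opposite strand. Read pairs were estimated from FPKM, exon bases in the locus and the aligned bases (3.63 Gb in M and 2.98 Gb in MR, from the ratio of coverage to FPKM), at 300 bases a pair, with exact binomial (Clopper-Pearson) 95% intervals. Log2 ratios of pairs and their intervals were corrected for the aligned bases and for the FPKM-to-TPM scale of each library.

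Groups came from the labels. The members, lists and families were chosen with earlier results of these data known. All 45 genes are named, and of each wider list examples come from up to 3 highest and 3 lowest log2 ratios past the threshold among genes of at least 10 TPM in a library, plus Itgav and Itgb3. Arpc1a and Arpc4 were added after their values had been seen. Some results are not reported here. Promoters came from RefSeq (35 of 45 genes matched, and Ptk2b, Pxn, Asap1, Sh3pxd2a, Rac1, Rac2, Dock5, Cttn, Parva and Myo1d had no entry). The assignment was tested on simulated data. Python 3.11.15, pandas 2.3.3, numpy 2.4.6, scipy 1.17.1 and matplotlib 3.10.9 were used. The alternatives were another pseudocount, filter, unit, scaling, threshold and locus rule.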

Additional observations from a re-analysis of the deposited data

How the results depend on the processing

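Under the alternatives run, the podosome gene counts ranged within 1.5 times of 14 higher and 3 lower, except at a log2 threshold of 2, which left 9 higher and 0 lower podosome genes, and 18 higher and 8 lower genes of the wider lists (6.98% and 3.84% of all genes). Of 494 single-gene values, 381 moved by no more than their counting error, and 7 values, of 5 genes, changed sign. By listed coverage these were Ptk2b (0.50), the only one of the 17 called genes to do so, Asap1 (1.83) and Ilk (-0.33). Under median-of-ratios scaling they were Rhoa (-0.02), Wasf2 (-0.11) and Ilk (-0.04), and Wasf2 (-0.04) also when mitochondrial genes and the 20 most abundant were left out. The median over the podosome genes was -0.02 and 0.38 under median-of-ratios scaling and by listed coverage. Called genes that lost the threshold in some setting were Ptk2b, Parva and Tns3, and uncalled genes that passed it in some setting were Asap1, Cdc42, Rhoc, Wipf1 and Tln1. The cause was not tested. The exon-base-weighted mean of loci, the joined Src and Manbal loci and the list without Src (13 higher) were added after the data had been seen. No replicate could be left out, as each condition has 1 library. No paired analysis was possible because the libraries share no second replicate number. Depth limits the values of genes with few read pairs in M (Parva, Ablim1, Bcar1 and Myo1d).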

Other observations

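Other genes of the actin machinery differed between the libraries without being podosome genes by name. The actin monomer-binding thymosin gene Tmsb10 had 7802 TPM in M and 1144 TPM in MR, a log2 ratio of -2.77, and its paralog Tmsb4x had 6735 and 3522 TPM, which is -0.94 and, under median-of-ratios scaling, -1.12. Marcks, a membrane-bound actin crosslinker, had 220 and 37.3 TPM. Of the Ena/VASP genes, Evl had 312 and 54.7 TPM, whereas Vasp had 117 and 276 TPM.

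The tropomyosins summed to 870 and 826 TPM. Tpm3 went from 71.9% to 42.7% of this sum and Tpm1 from 6.68% to 22.4%. Dstn (destrin), a relative of cofilin, had 89.5 and 298 TPM, next to a cofilin level that lay between the thresholds. Parvb, the most abundant parvin, had 35.4 and 121 TPM. Tmsb4x, Vasp, Tpm1, Tpm3 and Parvb were chosen after their values had been seen.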
